A study of Mus musculus with 32 samples.

Results

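The genes described here are 38 mouse genes of xenobiotic metabolism and efflux. They were chosen by what their products do, with earlier results of these data known. The classes are CYP3A monooxygenases (4 genes), CYP2 monooxygenases (10), other cytochrome P450 enzymes (4), UDP-glucuronosyltransferases (UGT, 5), sulfotransferases (SULT, 4), glutathione S-transferases (GST, 6), efflux pumps (2), and cytochrome P450 reductase with the epoxide hydrolases (3). Around these genes, sites bound by hepatocyte nuclear factor 4 alpha (HNF4A) were counted in chromatin immunoprecipitation sequencing (ChIP-seq) libraries. Peaks of 8 libraries were merged into 45552 sites where they shared at least 1 bp, and 225 of these lay within a gene body of the 38 genes or 20 kb either side. Each site was assigned to the nearest start among the 38 genes. A site of a condition is 1 called in at least 2 of its 4 libraries.

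The series asks how microbes and a high-fat meal act together on the jejunal epithelium, and HNF4A ChIP-seq is 1 of its assays. The 8 libraries came from male C57BL/6J mice of 10 to 12 weeks, 1 library per mouse, with 4 mice in each group. GF+HFM mice were reared germ-free and given a high-fat meal (HFM) of egg yolk emulsion by gavage. CV+HFM mice were reared germ-free, colonized for 14 days with the microbiota of conventionally raised mice, and given the same meal. Jejunal tissue was collected 2 h after the meal in both groups, so the meal is shared and the presence of microbes is what differs. The preparations are called intestinal epithelial cells (IECs). By the study's methods they hold most villus epithelium, some crypts, and some villus mesenchyme, so fewer cells of a type and less HNF4A occupancy per cell cannot be told apart. Nothing on cage or litter was used, so each mouse was taken as an independent replicate.

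Xenobiotic metabolism proceeds in steps. Cytochrome P450 enzymes oxidize lipophilic compounds with electrons from cytochrome P450 reductase, and epoxide hydrolases open the reactive epoxides that can result. UGT, SULT, and GST enzymes then attach glucuronic acid, sulfate, or glutathione, and ATP-driven pumps of the apical membrane return compounds and conjugates to the lumen. Villus enterocytes express these steps as a barrier to ingested compounds. HNF4A is a nuclear receptor of liver and gut epithelium that binds as a dimer to direct repeats of the hexamer AGGTCA with 1 base between the copies, and in liver it is a known activator of cytochrome P450 genes together with xenobiotic receptors.

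The lists differed in length before any gene was considered. GF+HFM libraries held 31061 to 36846 peaks. CV+HFM libraries 1 to 4 held 29345, 9206, 21033, and 4533 peaks, with CV+HFM 2 and 4 far below the rest. The lists give positions only, so read depth is unknown, and the share of a shorter list that comes from depth, from chromatin quality, or from occupancy cannot be told apart. Of marker genes, 10 of 11 of the enterocyte list had a site of both conditions within the same window. The counts were 2 of 5 for liver, 3 of 7 for mesenchyme, 0 of 5 for the immune list, and 1 of 3 for neurons. Over all 22380 protein-coding genes the share was 46.7%. The lists are short, and these counts do not test which cells were present. A peak near a gene is occupancy and not expression.

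HNF4A sites were common at these genes, and those called in CV+HFM were sites that GF+HFM had also. Of the 38 genes, 35 had a site and all 35 had a GF+HFM site, whereas 31 had a site of both conditions. Of 22380 protein-coding genes, 14653 had a site within the same window, 13266 a GF+HFM site, and 10445 a site of both conditions. The genes without a site were Cyp3a16, Cyp2c39, and Ugt2b5. Of the 225 sites, 110 (48.9%) were sites of both conditions, beside 40.6% of all merged sites. All 8 libraries called 24 sites (10.7%, beside 7.56% of all merged sites), and these lay at 14 genes, a number not counted over all genes. A further 39 sites were called in 1 library only. No site was called in more CV+HFM than GF+HFM libraries, 200 were called in more GF+HFM libraries, and 25 in equal numbers. This split was not counted over all merged sites, so it is not a trait of these genes. Over all merged sites, 18492 of the 18584 CV+HFM sites were GF+HFM sites also. On average a GF+HFM library called 71.6% of all merged sites and a CV+HFM library 33.1%. The GF+HFM libraries called 182, 154, 182, and 178 of the 225 sites and the CV+HFM libraries 139, 46, 117, and 28. The groups did not overlap here, as they did not for all merged sites, where GF+HFM libraries called 29141 to 34812 and CV+HFM libraries 4087 to 27697. As a share of each library's own sites, the 225 made up 0.523 to 0.554% for GF+HFM, within the 0.502 to 0.685% of CV+HFM.

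The count of both conditions rests on CV+HFM 1 and 3. All 110 sites were called in both of these libraries, 46 of them in CV+HFM 2, and 28 in CV+HFM 4. Without CV+HFM 1 or without CV+HFM 3 the count fell to 50 (22.2%, with 20% of all merged sites), and without CV+HFM 2 and 4 together it was 110 (48.9%, with 40.1% of all). The short lists were nested in the others. The 46 sites of CV+HFM 2 and the 28 sites of CV+HFM 4 each had a call in every GF+HFM library. Of the 110 sites, 107 had one in all 4. The same nesting was not counted over all merged sites. When each list was limited to its 4533 widest peaks, the length of the shortest list, GF+HFM libraries called 28, 26, 40, and 34 sites at these genes and CV+HFM libraries 26, 25, 25, and 28, so the groups then overlapped.

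**Figure D1:**
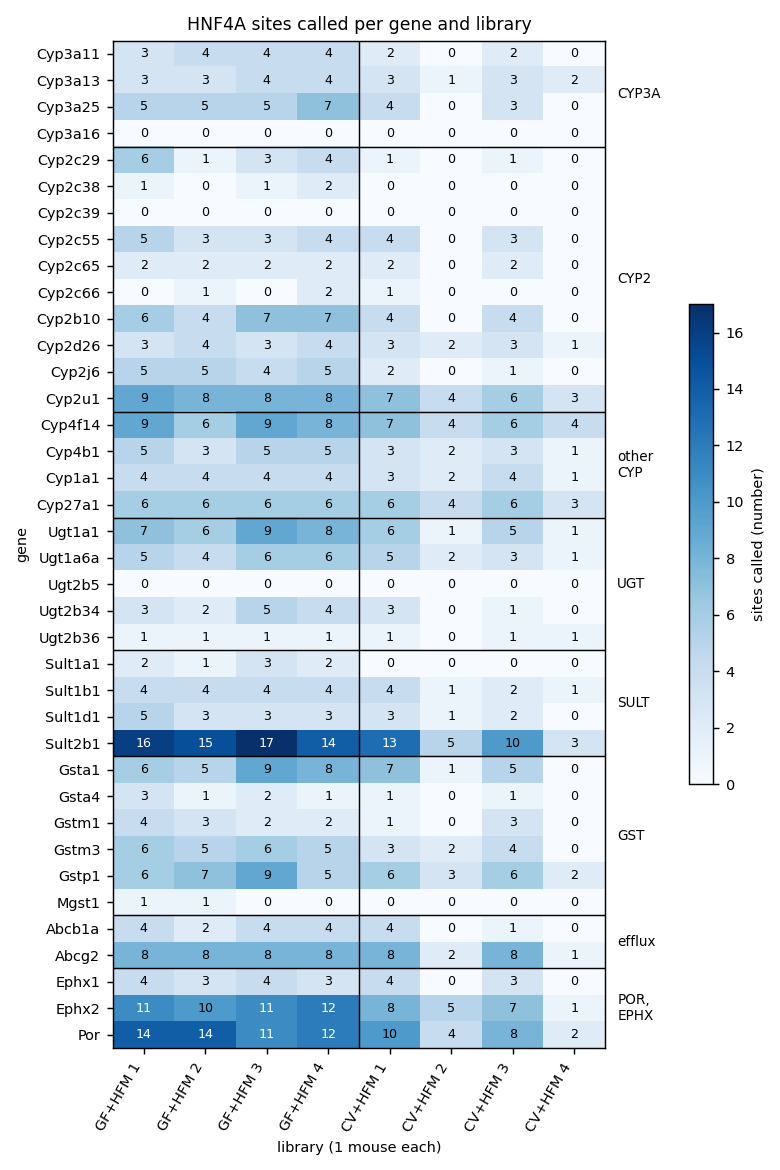
Number of HNF4A sites called per gene (rows, by class) in each library (columns, 4 GF+HFM mice then 4 CV+HFM mice), with the number printed and shaded in each cell. Sult2b1, Por, and Ephx2 have the most sites under assignment among the 38 genes, counts in CV+HFM 2 and 4 are the lowest of most rows, and Cyp3a16, Cyp2c39, and Ugt2b5 are 0 throughout.

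Most sites lay away from gene starts. A site covered the annotated start of 20 genes, 80 sites lay in a gene body clear of the start, 83 upstream, and 42 downstream. The part of a site covered by the most libraries fell in an intron at 71 of the 80 gene body sites and in an exon at 1. Introns and exons here and below are those of the gene's transcript with the most exons. Of the 20 sites over a start, 14 (70%) were sites of both conditions, beside 46% of the 3047 merged sites over any protein-coding start. Upstream sites were of both conditions in 50.6%, gene body sites in 45%, and downstream sites in 42.9%, beside 40.2% of the 42505 merged sites not over a protein-coding start. These places refer to the assigned gene, so such a site could cover another gene's start, as an Ephx2 upstream site covered that of Chrna2. From the nearest annotated transcript start, 38 sites lay within 1 kb and 127 beyond 5 kb. For 69 of the 225 sites another protein-coding gene had the nearer start.

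**Figure D2:**
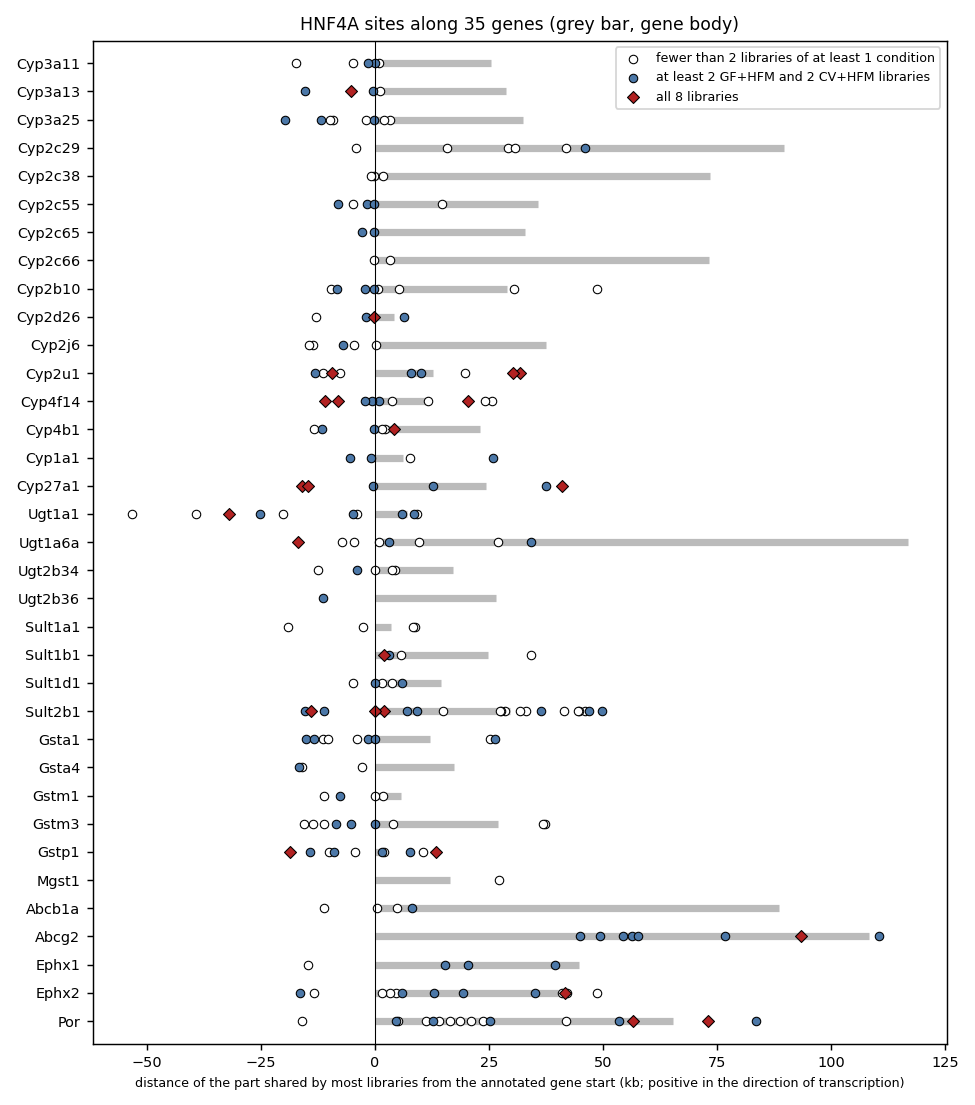
Position of each HNF4A site (1 point) in kb from the annotated start of its gene, positive in the direction of transcription, for the 35 genes with a site, with the gene body as a grey bar. Open circles were called in fewer than 2 libraries of at least 1 condition, blue circles are sites of both conditions, and red diamonds the 24 sites called in all 8 libraries.

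The HNF4 element CAAAGTCCA was searched on both strands in the 200 bp at the best-covered part of every site. An exact match was present in 14 of the 225 sites (6.22%, beside 5.98% of all merged sites), and a match with up to 1 mismatch in 34.7% (beside 33.6%). The direct repeat AGGTCANAGGTCA, where N is any base, matched with up to 2 mismatches in 15.1% of sites, beside 14.6%, and with up to 3 in 50.7%, beside 45.9%. These shares were close to those of all merged sites. Both searches describe letters, and the elements can overlap each other. Among all 3440 scanned sites called in all 8 libraries the exact element was present in 13.5%, and among the 24 at these genes in 1. The matches are shown for the 7 sites of both conditions that held an exact element, and for 1 site of Cyp2j6 that 4 GF+HFM libraries and 0 of CV+HFM called, with 10 bases either side, on the strand of the element and with the element in capitals.
Cyp3a11 start, minus strand, chr5:146691531-146691539, 4 libraries of GF+HFM and 2 of CV+HFM: aagagagtacCAAAGTCCAgtgatgcaaa
Cyp2c65 start, plus strand, chr19:39135380-39135388, 4 and 2 libraries: gatgttggaaCAAAGTCCActgggaggag
Cyp2j6 upstream, plus strand, chr4:96227255-96227263, 4 and 2 libraries: ttaattccacCAAAGTCCAaattggccaa
Cyp2j6 upstream, plus strand, chr4:96234825-96234833, 4 and 0 libraries: tttacaaggtCAAAGTCCAactgctatat
Cyp4f14 gene body, plus strand, chr17:33053075-33053083, 4 and 3 libraries: agatataaatCAAAGTCCAtagtatggag
Ugt1a6a gene body, plus strand, chr1:90002912-90002920, 4 and 3 libraries: acactggagtCAAAGTCCAgcacctatga
Sult1b1 gene body, minus strand, chr5:87965214-87965222, 4 and 4 libraries: gtgagcaggcCAAAGTCCAttcctggtgg
Abcg2 gene body, minus strand, chr6:58588970-58588978, 4 and 2 libraries: agagcaaaatCAAAGTCCAatggtgtaaa

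In Cyp3a11 the centre of the element lay 5 bp after the annotated start, in exon 1, and in Cyp2c65 121 bp before the start. The 2 Cyp2j6 sites carried the same letters and differed in calls, 4 and 2 libraries against 4 and 0. An exact element was therefore present at sites with and without CV+HFM calls.

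For each class, the site called in the most libraries and, among these, the widest by mean rank within the lists is printed on the plus strand (mm9), at the part that all 8 libraries covered and to 160 bases at most. Capitals mark the closest match to the direct repeat on either strand where it had up to 3 mismatches, and the Cyp2d26 and Ugt1a1 sequences held none.
CYP3A, upstream of Cyp3a13, chr5:138367954-138368064: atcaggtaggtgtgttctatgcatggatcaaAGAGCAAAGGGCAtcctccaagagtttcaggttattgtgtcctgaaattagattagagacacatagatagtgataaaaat
CYP2, over the start of Cyp2d26, chr15:82624801-82624960: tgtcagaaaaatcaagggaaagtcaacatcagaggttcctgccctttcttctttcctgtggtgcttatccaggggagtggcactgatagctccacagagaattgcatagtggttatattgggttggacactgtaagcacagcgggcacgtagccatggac
Other CYP, upstream of Cyp4f14, chr17:33062043-33062202: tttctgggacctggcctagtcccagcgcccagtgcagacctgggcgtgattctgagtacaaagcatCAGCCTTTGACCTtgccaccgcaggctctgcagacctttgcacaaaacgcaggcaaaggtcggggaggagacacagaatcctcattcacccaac
UGT, upstream of Ugt1a1, chr1:90076449-90076500: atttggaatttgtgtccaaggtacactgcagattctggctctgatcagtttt
SULT, intron 1 of Sult2b1, chr7:53012829-53012980: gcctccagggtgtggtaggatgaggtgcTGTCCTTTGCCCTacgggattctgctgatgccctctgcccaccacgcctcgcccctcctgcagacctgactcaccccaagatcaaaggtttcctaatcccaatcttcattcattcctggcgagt
GST, upstream of Gstp1, chr19:4056478-4056637: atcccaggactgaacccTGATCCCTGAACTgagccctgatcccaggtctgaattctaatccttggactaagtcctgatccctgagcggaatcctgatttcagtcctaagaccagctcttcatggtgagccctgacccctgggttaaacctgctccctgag
Efflux, intron 9 of Abcg2, chr6:58627887-58628016: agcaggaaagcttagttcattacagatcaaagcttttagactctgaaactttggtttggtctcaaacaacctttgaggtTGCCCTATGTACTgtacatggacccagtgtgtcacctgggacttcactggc
Reductase, downstream of Por, chr5:136218881-136219040: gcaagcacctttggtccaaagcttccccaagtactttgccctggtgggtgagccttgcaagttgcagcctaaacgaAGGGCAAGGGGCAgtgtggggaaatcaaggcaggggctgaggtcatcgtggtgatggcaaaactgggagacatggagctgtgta

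The Sult2b1 match had 2 mismatches and the other 5 had 3.

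CYP3A enzymes carry out a large part of intestinal drug oxidation, and their 4 genes had 17 sites. Of 14 GF+HFM sites, 8 (57.1%) were sites of both conditions, beside 59.1% over all 38 genes and 53.6% over all merged sites. Cyp3a11, the principal inducible CYP3A gene of mouse liver and gut, had 3, 4, 4, and 4 sites in the germ-free mice (GF+HFM 1 to 4) and 2, 0, 2, and 0 in the colonized mice (CV+HFM 1 to 4), the order used below. Its site over the start (chr5:146691243-146691966) and a site 1447 bp upstream had calls from every GF+HFM library, CV+HFM 1, and CV+HFM 3. Cyp3a13 had 3, 3, 4, and 4 sites against 3, 1, 3, and 2, so its counts overlapped between groups. It held the only CYP3A site of all 8 libraries, 5162 bp upstream, and a wide site over the start (chr5:138362752-138363873) that CV+HFM 2 alone did not call. Cyp3a25 had 5, 5, 5, and 7 sites against 4, 0, 3, and 0, with the site over its start (chr5:146820979-146821751) in 4 libraries of GF+HFM against 2 of CV+HFM. Below, pairs of library numbers give GF+HFM first. CYP3A genes are near-identical in places, and 1 Cyp3a25 site had fewer than 50% of its 50-base words present once in the genome, so reads there could be placed at the wrong copy or dropped.

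The 10 CYP2 genes had 44 sites, of which 19 were of both conditions and 4 of all 8 libraries. The 6 Cyp2c genes, neighbours on chromosome 19 whose products oxidize drugs and fatty acids, held 18 of these sites. CV+HFM 2 and 4 called 0 of the 18, CV+HFM 1 called 8, and CV+HFM 3 called 6, against 14, 7, 9, and 14 in GF+HFM. As shares of the 18 the CV+HFM calls were 44.4, 0, 33.3, and 0%, beside 60.8, 19.2, 43.3, and 8.97% of all merged sites in the same libraries, where CV+HFM 2 and 4 also called few. Cyp2c55 (over start, chr19:39081091-39081597) and Cyp2c65 (chr19:39135171-39135628) had start sites in 4 and 2 libraries. The start sites of Cyp2c66 (chr19:39188176-39188449) and Cyp2c38 (chr19:39537565-39537791) had 2 and 1 GF+HFM calls, with 1 and 0 from CV+HFM. Cyp2c29 had the most sites of the cluster, 6, with counts of 6, 1, 3, and 4 against 1, 0, 1, and 0. None covered its start, the nearest (chr19:39311157-39311645) had 2 GF+HFM calls, and 1 in intron 2 (chr19:39361207-39361688) was of both conditions. At 2 of the 6 sites fewer than 50% of the 50-base words were present once in the genome. Of the 6 sites of both conditions in the cluster, Cyp2c55 had 3, Cyp2c65 had 2, and Cyp2c29 had 1.

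Cyp2b10, a standard target of the constitutive androstane receptor, had 6, 4, 7, and 7 sites in GF+HFM and 4, 0, 4, and 0 in CV+HFM, and its start site (chr7:26682207-26682836) was called in 4 and 2 libraries. Cyp2d26 combined few sites with wide ones. Its site over the start (chr15:82624249-82625449) was called in all 8 libraries at a mean width percentile of 97.9 within the lists, where 100 would be the widest peak. Cyp2j6, whose family forms epoxides of arachidonic acid, had 5, 5, 4, and 5 sites against 2, 0, 1, and 0. It held 2 of the 4 sites at these genes with 4 GF+HFM and 0 CV+HFM calls (chr4:96224778-96225173 and chr4:96234640-96235049), and its start site (chr4:96219800-96220352) was called in 4 and 1. Cyp2u1, a fatty acid hydroxylase gene, had 9, 8, 8, and 8 sites against 7, 4, 6, and 3, with 3 called in all 8 libraries. Its nearest site to the start (chr3:131013497-131013991) was called in 3 and 1 libraries. The widest (chr3:130973133-130974736), 31906 bp downstream of the start, lies nearer to the start of Hadh, at 283 bp. Another of the 3, 30363 bp downstream, lies 476 bp from the start of Hadh.

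At the 4 other P450 genes, 18 of 23 GF+HFM sites (78.3%) were of both conditions, beside 53.6% over all merged sites. This was the largest share of the 8 classes, close to the 75% of the efflux genes. The 4 genes held 7 of the 24 sites of all 8 libraries. Of these, the Cyp27a1 site 40986 bp after its start lay nearer to Prkag3, and the Cyp4f14 site 20388 bp after its start nearer to Zfp870. Cyp27a1, the mitochondrial sterol 27-hydroxylase, had 6 sites in each GF+HFM library and 6, 4, 6, and 3 in CV+HFM. All 6 of its sites were of both conditions, 3 were called in all 8 libraries, and the site over its start (chr1:74759356-74760495) was called in 4 and 2. Cyp4f14, which hydroxylates leukotrienes and vitamin E, had 9, 6, 9, and 8 against 7, 4, 6, and 4, with a start site (chr17:33054002-33055037) in 4 and 2 libraries. Cyp4b1 had 5, 3, 5, and 5 against 3, 2, 3, and 1. Its start site (chr4:115320309-115321034) was called in 4 and 3 libraries and its widest site, in intron 1 (chr4:115315658-115316539), in all 8. Cyp1a1, induced by aryl hydrocarbon receptor ligands, had 4 sites in each GF+HFM library and 3, 2, 4, and 1 in CV+HFM, the nearest 415 bp before the start (chr9:57543979-57545005) in 4 and 3 libraries. Counts of Cyp27a1 and Cyp1a1 varied among CV+HFM libraries and not at all among GF+HFM libraries, as did those of Cyp2c65, Ugt2b36, Sult1b1, and Abcg2.

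UGT genes had 24 sites, with 10 of 18 GF+HFM sites (55.6%) of both conditions. Ugt1a1, the bilirubin glucuronosyltransferase, and Ugt1a6a are first exons of a shared locus on chromosome 1, so a site between them could not be assigned to either with certainty. Ugt1a1 had 7, 6, 9, and 8 sites against 6, 1, 5, and 1, with its nearest site (chr1:90104552-90105069) called in 3 GF+HFM libraries only. For 9 of the 10 Ugt1a1 sites another gene had the nearer start, which was Dnajb3 for this nearest site. The gene body of Ugt1a1 with 20 kb either side held 5 sites, called as 4, 3, 5, and 4 against 3, 0, 3, and 0. Ugt1a6a had 5, 4, 6, and 6 against 5, 2, 3, and 1, and the site nearest its start (chr1:90000546-90000772) was called in 1 library. The locus held 2 sites of all 8 libraries, 32060 bp upstream of Ugt1a1 and 16837 bp upstream of Ugt1a6a. The first lay nearer to the start of Ugt1a5 and the second to that of Ugt1a8. Ugt2b34 had 3, 2, 5, and 4 against 3, 0, 1, and 0, and its start site (chr5:87335761-87336304) was called in 2 GF+HFM libraries. Ugt2b36 had 1 site, 11385 bp upstream (chr5:87532635-87533159), called in 4 and 3 libraries.

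Among sulfotransferases the sites were uneven. Sult2b1, which sulfates cholesterol, had 20 of the 33, the most under assignment among the 38 genes, with 16, 15, 17, and 14 called in GF+HFM and 13, 5, 10, and 3 in CV+HFM. For 14 of the 20 another gene had the nearer start, among them Spaca4 and Rpl18, leaving 6, whereas Por kept 11 of 16. The site over the Sult2b1 start (chr7:53014707-53015294) was called in all 8 libraries, as were 2 others, and 1 in intron 1 (chr7:52999842-53000223) was called in 4 and 0. Sult1a1, the phenol sulfotransferase, had 2, 1, 3, and 2 sites in GF+HFM and 0 in every CV+HFM library, its nearest (chr7:133822335-133822804) in 2 GF+HFM libraries. Sult1b1 had 4 sites in each GF+HFM library and 4, 1, 2, and 1 in CV+HFM, with the nearest (chr5:87964927-87965620), in intron 1, called in all 8. The 29 bases printed above for this site lie in an untranslated region of an annotated transcript. Sult1d1 had 5, 3, 3, and 3 against 3, 1, 2, and 0, with a start site (chr5:87997874-87998352) in 4 and 2 libraries.

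GST genes had 36 sites, and 16 of 25 GF+HFM sites (64%) were of both conditions. Gstp1, the pi-class enzyme, had 6, 7, 9, and 5 sites against 6, 3, 6, and 2. Its nearest site, in intron 5 (chr19:4036121-4036768), was called in 4 and 2 libraries, and the widest (chr19:4055509-4057541), 18637 bp upstream and nearer to another gene's start, in all 8 at a mean width percentile of 98.4. Gsta1, an alpha-class enzyme, had 6, 5, 9, and 8 against 7, 1, 5, and 0, with a start site (chr9:78077484-78078916) in 4 and 3 libraries, and 3 of its 9 sites had fewer than 50% of their 50-base words present once in the genome. Gstm3 had 6, 5, 6, and 5 against 3, 2, 4, and 0, with a start site (chr3:107771770-107772710) in 4 and 3. Gstm1, another mu-class gene, had a start site (chr3:107820881-107821037) in 1 GF+HFM library, and Gsta4 had its nearest site (chr9:78036846-78037083) in 2. Mgst1, the microsomal enzyme, had 1 site, 27184 bp after its start (chr6:138115913-138116143), in 2 GF+HFM libraries.

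The 2 efflux pumps differed in where their sites lay. Abcg2, the breast cancer resistance protein, had 8 sites called in every GF+HFM library, and in CV+HFM 8, 2, 8, and 1. All 8 were sites of both conditions. They began 44585 bp after the annotated start (chr6:58579102-58579621), and 2 of them covered the start of an annotated transcript. The first of these (chr6:58590189-58591208) was called in 4 and 3 libraries. The other, the widest, in intron 9 (chr6:58627552-58628931), was called in all 8. Abcb1a, which encodes P-glycoprotein, had 4, 2, 4, and 4 sites against 4, 0, 1, and 0, and its start site (chr5:8659798-8660737) had calls from every GF+HFM library and from CV+HFM 1. Of its 4 sites, 1 was of both conditions, in intron 3.

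Por, which supplies electrons to all microsomal P450 enzymes, had 14, 14, 11, and 12 sites in GF+HFM and 10, 4, 8, and 2 in CV+HFM. The site nearest its annotated start (chr5:136150209-136150600) was called in 2 and 2 libraries, and its widest (chr5:136218436-136220193), downstream of the gene and nearer to the start of Tmem120a, in all 8. Ephx2, the soluble epoxide hydrolase, had 11, 10, 11, and 12 against 8, 5, 7, and 1, its nearest site (chr14:66741672-66742013) in 1 library. A downstream site (chr14:66694540-66694949), nearer to the start of Adam2, had 4 and 0. For 7 of the 13 Ephx2 sites another gene had the nearer start, among them its site of all 8 libraries. Ephx1, the microsomal enzyme, had 4, 3, 4, and 3 against 4, 0, 3, and 0, the nearest (chr1:182965453-182965797) in 3 and 1.

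**Figure D3:**
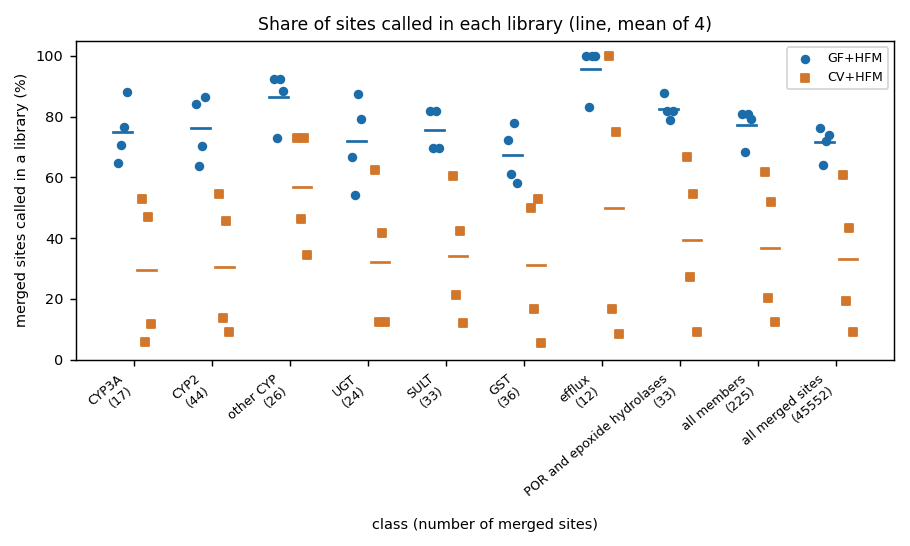
Share of the merged sites of each class called in a library (%), 1 point per library with the line at the mean of 4, for GF+HFM (blue circles) and CV+HFM (orange squares), and the same for the 38 genes together and for all merged sites. The CV+HFM libraries spread from 12.4 to 61.8% over the 225 sites and the GF+HFM libraries from 68.4 to 80.9%.

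At single sites the calls of 4 against 4 mice could not separate the conditions. Sites with 4 GF+HFM and 0 CV+HFM calls numbered 4 of 225, or 1.78%, beside 2.79% of all merged sites. They were assigned to Cyp2j6 (2), Sult2b1, and Ephx2, the last nearer to the start of Adam2. Each reached the smallest p this design allows (Fisher's exact test, two-sided, p = 0.0286), and after Benjamini-Hochberg adjustment over all 45552 sites the smallest value was 0.824. No site passed at an adjusted 0.05, with 1269 sites of all and 4 at these genes at an unadjusted p under 0.05. Without CV+HFM 1, 17 of the 225 sites had 4 GF+HFM calls and none from the 3 CV+HFM libraries left, or 7.56%, beside 10.9% of all merged sites. The count was 10 without GF+HFM 2 (4.5%, beside 5.6% of all) and 9 without CV+HFM 3 (4%, beside 4.21% of all), so each share was at or below that of all sites.

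Counts per gene were compared in the same way for all 14653 protein-coding genes with a site within the gene body or 20 kb, with overlapping windows counted for each gene. In 9 of the 35 genes here (25.7%), all GF+HFM counts exceeded all CV+HFM counts, beside 12.2% of all genes, and in 0 the reverse held. These were Cyp3a11, Cyp3a25, Cyp2j6, Cyp2u1, Sult1a1, Sult2b1, Gstm3, Ephx2, and Por. Each had an exact permutation p of 0.0286, two-sided over 70 relabellings and the smallest possible, which became 0.234 after Benjamini-Hochberg adjustment, so no gene of the 14653 passed 0.05. The 35 genes had a median of 6 sites per window, against 3 for the 14653, and the part of the number of sites in this share was not tested. With the 4533 widest peaks of each list the count was 0 of 24 genes left, beside 0.736% of all genes. Without CV+HFM 1 it was 14 (40%, beside 38.2% of all genes) and without GF+HFM 2 it was 17 (48.6%, beside 20.8%). With a 5 kb flank it was 4 of 33 (12.1%, beside 9.61%), and with each site given to the nearest of all protein-coding starts 5 of 35 (14.3%, beside 8.99%).

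Having a site of both conditions was more frequent here than in the genome as a whole. Within gene body and 20 kb, 31 of the 38 genes (81.6%) had such a site, beside 46.7% of 22380 protein-coding genes, with a median window of 66.8 kb against 55.4 kb. The genes were chosen for their function in a tissue that expresses many of them, with earlier results of these data known. This share is therefore a description only. Another 129 xenobiotic genes were counted over their own windows, which can overlap each other and those of the 38 genes, so a site can count more than once. Of the 129, 104 had a site, 98 a GF+HFM site, and 81 a site of both conditions. By class the last were 16 of 17 GST genes, 9 of 12 other P450 genes, 7 of 13 UGT genes, 5 of 8 efflux genes, 12 of 29 CYP2 genes, 1 of 5 CYP3A genes, and 1 of 8 SULT genes. In the class of the reductase and epoxide hydrolases they were 2 of 4, Cyb5 and Cyb5r3. The hydrolase genes Ephx3 and Ephx4 had no site of both conditions. A further class of phase I and II enzymes, such as dehydrogenases and carboxylesterases, had 28 of 33.

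Sites called in more libraries were wider. The median width percentile in the GF+HFM lists rose from 10 for sites of 1 library through 57.4 for sites of 6 to 86.9 for sites of all 8, and over all merged sites from 12.3 through 57.3 to 86.3. Sites of 6 libraries were the most frequent at these genes (57 sites, 25.3%, beside 19.2% of all merged sites), and at all 57 the 6 were the GF+HFM libraries with CV+HFM 1 and 3. Which libraries made up the 6 was not counted over all merged sites. Width here is the extent MACS2 gave a peak, and grows with signal and with depth.

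**Figure D4:**
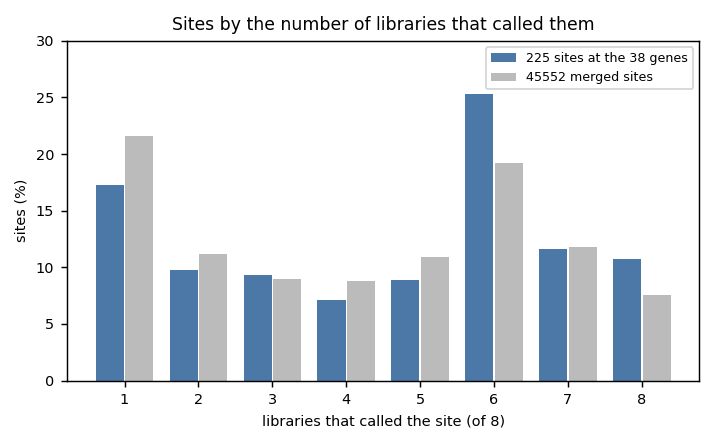
Percentage of sites called in 1 to 8 libraries, for the 225 sites at the 38 genes (blue) and for all 45552 merged sites (grey). The bars at 6 libraries stand at 25.3 and 19.2% and those at 1 library at 17.3 and 21.6%.

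For the 24 sites called in all 8 libraries, the rank of a site by width among the 3445 such sites of its own list was compared between conditions as a normal score, on the same sites in every library. In limma with Benjamini-Hochberg adjustment over the 3445 sites, 4 passed an adjusted p of 0.05 (0.116%), all narrower in CV+HFM, and none of the 24 was among them (smallest adjusted p = 0.358, with 1 of 24 and 398 of 3445 at an unadjusted p under 0.05). On simulated data with the same spread this test found 0% of sites moved by 1 score unit, 76.5% of those moved by 2, and 96% of those moved by 3, so shifts near 1 unit were not detectable. The lowest p was at the site assigned to Cyp2u1 31906 bp after its start, which lies 283 bp from the start of Hadh. Its widths were 716, 779, 1446, and 1604 bp in GF+HFM and 819, 190, 494, and 83 bp in CV+HFM, and its scores averaged 1.2 ± 0.55 (SD, n = 4) and 0.08 ± 0.86, a difference of -1.13 with a standard error of 0.45. The next was the site over the Sult2b1 start, whose widths were 524, 411, 525, and 513 bp against 491, 265, 307, and 275 bp. Its scores averaged -0.91 ± 0.48 and 0.01 ± 0.92, a difference of 0.92 with a standard error of 0.46 (limma, adjusted p = 0.433). The scores of the groups overlapped at both sites, as they did at all 24.

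**Figure D5:**
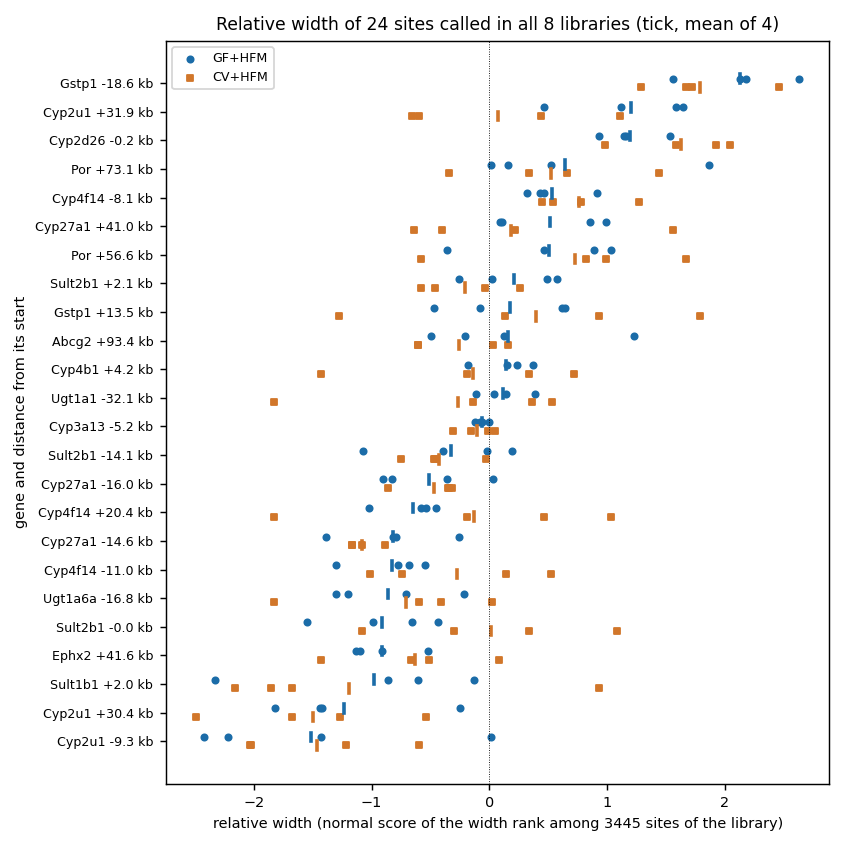
Relative width of the 24 sites called in all 8 libraries, as the normal score of the width rank within each library, 1 point per library with the tick at the mean of 4, for GF+HFM (blue circles) and CV+HFM (orange squares). Rows are named by gene and distance in kb and ordered by the GF+HFM mean, and the groups overlap in every row.

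The Gstp1 and Cyp2d26 sites ranked high under both conditions. Scores of the Gstp1 site averaged 2.13 ± 0.44 in GF+HFM and 1.78 ± 0.49 in CV+HFM, and those of the Cyp2d26 start site 1.19 ± 0.25 and 1.63 ± 0.47 (SD, n = 4). At the Abcg2 site of all 8 libraries the averages were 0.16 ± 0.76 and -0.26 ± 0.41, and at the Cyp3a13 site -0.06 ± 0.05 and -0.11 ± 0.16. The adjusted p-values (limma) were 0.745, 0.649, 0.705, and 0.974 in that order, so these differences did not stand out from the spread between mice.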

How the data were processed

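HNF4A ChIP-seq (antibody Abcam ab41898) was made from jejunal IEC preparations of 4 GF+HFM and 4 CV+HFM mice, and the other libraries of the series were not analysed here. Per the study's methods, the authors aligned 50-base single-end reads with Bowtie2 to mm9 and called narrow peaks per mouse against input with MACS2 (2.1.1.20160309) at a false discovery rate under 0.05, without pooling. Blacklisted regions were removed by the authors only from their own merged set. The deposited lists hold peak positions in bp (mm9) with no counts, signal, or p-values, so read depth is unknown and the width of a peak took the place of its strength, as planned for that case. A short list can thus lower every count of its library.

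From these lists, peaks were merged, assigned to genes of GENCODE M1, and counted as described above. Calls per site were compared by Fisher's exact test, site counts per gene by an exact permutation test over all relabellings, and width ranks by limma (3.58.1), each with Benjamini-Hochberg adjustment over all sites or genes. The width test was tested on simulated data. Python 3.11.15, numpy 2.4.6, scipy 1.17.1, matplotlib 3.10.9, and R 4.3.3 were used. On the 22 chromosomes compared, no peak lay beyond the end of the reference sequence. Another 226 sites were on 9 sequence names absent from the reference and were not used for motif searches. Among the 225 sites, 193 had over 90% of their 50-base words present once in the genome.

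The genes and lists were chosen with earlier results of these data known. Every one of the 38 genes was named. The printed class sequences followed a fixed rule, whereas the exact-element sequences and the setting without CV+HFM 2 and 4 were chosen after the data were seen.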

Additional observations from a re-analysis of the deposited data

Results flagged for a closer look

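In 5 of 103 groups of 4 libraries tested, 1 library stood apart from the other 3 by Dixon's criterion, and chance flags about 5% of groups. GF+HFM 2 called 154 of the 225 sites, and the other GF+HFM libraries called 178, 182, and 182. As a share of a library's own sites, the 225 made up 0.554% in GF+HFM 3 and 0.523, 0.528, and 0.528% in the other GF+HFM libraries. At the efflux genes GF+HFM 2 called 10 sites and the other 3 called 12 each. At the Cyp27a1 site 16027 bp upstream, the relative width in CV+HFM 4 was -0.86, against -0.35, -0.34, and -0.32 in the others. At the Sult1b1 site in intron 1 it was 0.93 in CV+HFM 4, against -2.16, -1.85, and -1.68.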

How the results depend on the processing

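Sites of both conditions (110 of 225) numbered 31 where a peak had to cover at least 50% of the merged site (13.8%, beside 15% of all merged sites), 50 with at least 3 of 4 libraries of each condition (22.2%, beside 19.5%), 69 of 143 with a 5 kb flank (48.3%, beside 40.6%), 22 of 63 with the 4533 widest peaks of each list (34.9%, beside 31.1%), and 55 of 166 with peaks of at least 300 bp (33.1%, beside 25.4%). With 1 library left out the count ranged from 50 to 111. Sites called in GF+HFM only (4) numbered 8 under the cover requirement (3.56%, beside 4.89% of all), 18 with at least 3 of 4 GF+HFM libraries (8%, beside 8%), 2 of 143 with a 5 kb flank (1.4%, beside 2.79%), 9 of 310 with a 50 kb flank (2.9%, beside 2.79%), 0 of 63 with the widest peaks (beside 0.515%), and 9 of 166 with peaks of at least 300 bp (5.42%, beside 3.73%), and ranged from 4 to 17 with 1 library left out (17 without CV+HFM 1, 10 without GF+HFM 2, 9 without CV+HFM 3). Genes with separate counts (9 of 35, 25.7% beside 12.2% of all genes) numbered 4 of 33 with a 5 kb flank (12.1%, beside 9.61%), 5 of 35 by nearest start (14.3%, beside 8.99%), 0 of 24 with the widest peaks (beside 0.736%), 5 of 32 with peaks of at least 300 bp (15.6%, beside 11.5%), and 14 of 35 by bases covered (40%, beside 35.8%), and ranged from 9 to 17 with 1 library left out. In relative width at the sites called in all 8 libraries, same-numbered libraries did not deviate together (correlations of 0.05, 0.07, -0.08, and 0.14). The labels give no pairing beyond the number, and these correlations cannot exclude one. With a replicate block 17 genes had higher GF+HFM counts in every pair (48.6%, beside 30.7% of all genes), and that test could not reach 0.05. No width difference of the 24 sites passed under any alternative, the replicate block (0) included. The cause of these shifts was not tested, except that the stricter settings keep fewer peaks by construction. Read depth, unknown here, limits every count of calls.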
